A study of Mus musculus with 12 samples.

Results

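Livers of mice given silver nanoparticles with a polyvinylpyrrolidone (PVP) coat were compared with livers of mice given silver nanoparticles with a citrate coat. The comparison held the 4 livers whose titles named PVP-coated silver and the 4 whose titles named citrate-coated silver, 8 of the 12 in the series, each on its own whole-transcript Affymetrix array. All groups were mice of C57BL/6J -Oca2p-un/J, 3 months old, with an unstable allele of the pigment gene Oca2. Silver particles of 20 nm were given by gavage once a day for 7 days at 4 mg of silver per kg, and the liver was taken 24 h after the last dose. Controls received water, so a group given an empty coat was not analysed here. In each coating group, livers 1 and 2 were from females and livers 3 and 4 from males, and the 4 controls were also 2 females and 2 males. The labels name the livers as separate mice and give neither cages nor litters.

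Citrate is a small charged molecule that is loosely held on silver, whereas PVP is a neutral polymer that keeps particles apart by its bulk. The coat is known to influence how particles clump, dissolve and bind proteins. The liver takes up much of the silver that crosses the gut wall, and silver ions bind the sulfur of metallothionein, glutathione and other proteins. The question here was which liver genes differed between the coatings at one dose of silver and one time.

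Signals are on a log2 scale, so a difference of 1 is a doubling of signal. Of 30063 genes with a probe set naming one symbol, the 19985 with a mean above a log2 signal of 3.93 were tested. Differences are PVP minus citrate from one limma fit to all 12 arrays with terms for group and sex, and are given with their standard error (SE). Group levels are mean ± SD of 4 livers. Because whole liver was measured, fewer cells of a type and less RNA per cell cannot be told apart.

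The arrays of the PVP group were less uniform than those of the citrate group. The gap between the median signals of exon and intron control probe sets, a measure of RNA and labelling quality, was 3.29, 4.04, 3.98 and 3.60 for PVP livers 1 to 4, and 4.13 to 4.18 for citrate livers. Each PVP array lay below each citrate array, a difference of -0.434 (exact permutation test, two-sided, p = 0.0286, the smallest that 4 against 4 allows). The separation of exon from intron controls, as the area under the curve, was 0.802 ± 0.0198 against 0.820 ± 0.00624 (exact p = 0.143). PVP 1 and PVP 4 had the 2 lowest areas, 0.778 and 0.794. Counts are therefore also given without these 2 arrays.

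The same arrays departed from the others by signal level. Among the 1591 genes with a mean signal of 9 to 11, the median deviation from the mean of all controls was -0.48 in PVP 1 and -0.17 in PVP 4. It was -0.10 in PVP 2, 0.02 in PVP 3, and between -0.05 and 0.01 in the citrate livers. In that range 75.6% of genes were lower with PVP and the median difference was -0.18, whereas among genes of 3.93 to 5 it was 0.07 and 27.8% were lower. List medians near -0.2 are therefore no lower than the typical gene of that brightness, and the part that the array shift has in the list values was not tested.

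**Figure D1:**
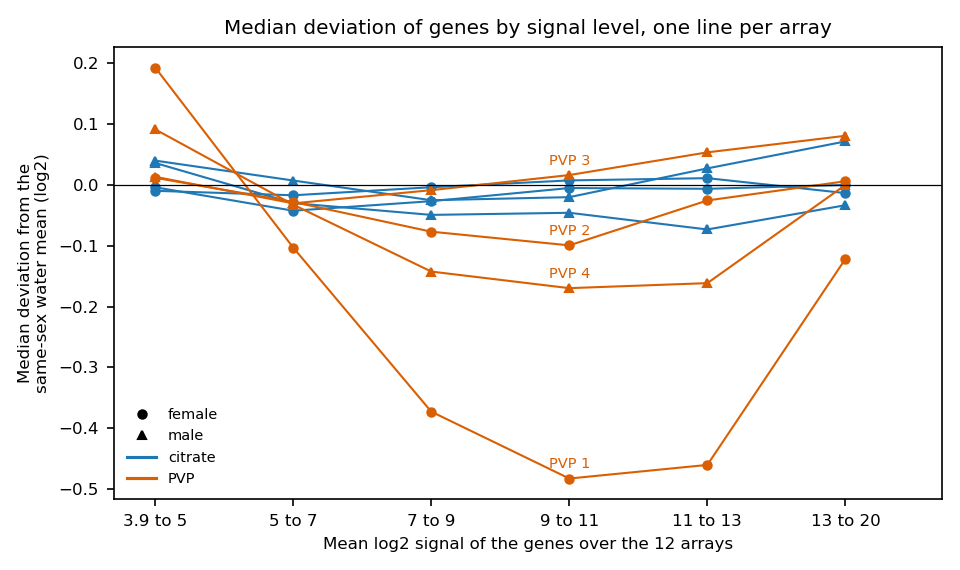
Median deviation of genes from the mean of all water livers (log2, vertical axis) by mean signal over the 12 arrays (horizontal axis), one line per array, citrate in blue and PVP in orange, circles for females and triangles for males. That mean is over both sexes, although the axis label names the same sex. PVP 1 reached -0.48 and PVP 4 -0.17 at a signal of 9 to 11, while the citrate lines stayed within 0.08 of 0.

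The liver and sex labels were set against marker genes. All 14 hepatocyte markers were measured, and 7 of them, albumin (Alb) among them, sat at the table's ceiling of 19.93 on every array, so no difference could be measured for these. The markers Apoa1 and Serpina1d also held a single value on all 12 arrays, 19.92 and 19.80, just below that ceiling. Xist separated the females (15.6 to 16.6) from the males (4.77 to 7.16) as labelled. None of 7 tested bile duct markers and none of 12 lymphocyte markers had a mean signal above 6.

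None of the 19985 genes (0%) had an adjusted p under 0.05. The smallest adjusted p was 0.101. Without adjustment, 2800 genes (14%) had p under 0.05, 1057 of them higher with PVP (5.29%) and 1743 lower (8.72%). Lower genes made up 62.3% of these, a share that became 77.5% after quantile normalization and 78.8% with equal array medians, which moved the median of all genes by -0.079. Leaving out PVP 1 and PVP 4 gave an unadjusted count of 1375, with 3.02% of all genes higher and 3.86% lower. It was 1764 without PVP 1, 1799 without citrate 1 and 1666 without citrate 2.

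The size of the differences was small for most genes. The median absolute difference was 0.13, and 174 genes differed by more than 1, of which 105 were higher and 69 lower with PVP. All 4 PVP livers lay above all 4 citrate livers for 472 genes (2.36%) and below them for 967 (4.84%). Of the 2800 genes, the PVP mean lay farther from the water mean than the citrate mean did for 2273 (81.2%), against 68.1% of all genes tested.

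The 24 genes with known symbols and the smallest p comprised 6 that were higher and 18 that were lower with PVP, with adjusted p between 0.101 and 0.212. The coating groups overlapped for 2 of them, the small nucleolar RNA Snord16a and the chemokine Cxcl12. Their control means lay nearer the citrate mean for 13 genes and nearer the PVP mean for 11. A further 8 predicted genes had p-values as small.

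Prox1, a homeobox factor of hepatocytes and lymphatic endothelium, measured 11.86, 12.12, 12.03 and 11.45 in PVP livers and 11.12, 10.50, 10.23 and 10.60 in citrate livers. The lowest PVP liver was above the highest citrate liver, and the water mean of 11.25 ± 0.36 lay between the groups. The difference was 1.25 (SE 0.18, adjusted p = 0.169), and it was 1.46 without PVP 1 and PVP 4. Dlc1 was higher by 0.53 (SE 0.08), with citrate at 6.30 ± 0.13 below both PVP (6.83 ± 0.06) and water (6.90 ± 0.15). Ablim3, an actin-binding LIM protein, had citrate (8.41 ± 0.19) above both PVP (7.47 ± 0.18) and water (7.68 ± 0.14), a difference of -0.95 (SE 0.13, adjusted p = 0.169). For Dlc1 and Ablim3 the PVP mean was nearer the water mean than the citrate mean was.

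Efna1 encodes ephrin-A1, a membrane-bound ligand of Eph receptors. It measured 10.23 and 10.71 in PVP females, 9.12 and 8.61 in PVP males, 7.24 and 7.37 in citrate females and 7.92 and 7.87 in citrate males. Water livers averaged 8.72 ± 0.41, between the coatings. The PVP group lay wholly above the citrate group, by 2.06 (SE 0.38, adjusted p = 0.212), with the wider gap in females.

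Further genes of smallest p were lower with PVP. Exosc10, the catalytic subunit of the nuclear exosome, was lower by 0.44 on the log2 scale at 7.10 ± 0.09 against 7.54 ± 0.09, with water at 7.54 ± 0.15. Iars, the isoleucyl-tRNA synthetase, was at 8.57 ± 0.32 against 9.34 ± 0.06, and Pcbd1, a cofactor of the hepatocyte factor HNF1, at 13.76 ± 0.25 against 14.55 ± 0.13. Lsr, a receptor for triglyceride-rich lipoproteins, was at 7.85 ± 0.12 against 8.48 ± 0.20. PVP livers were below citrate livers without overlap for each of these 4 genes.

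The heat shock list had the highest share of members lower at an unadjusted p under 0.05. Heat shock factor HSF1 drives these genes when unfolded proteins build up, and HSP90 works with cochaperones that load its clients and set its ATPase rate. Of 21 tested members of the heat shock list, 18 were lower, 14 (66.7%) at an unadjusted p under 0.05 and 9 without overlap, with a median difference of -0.46. Among genes of signal 9 to 11, which holds the list's median signal, 17.9% were lower at that p. Without PVP 1 and PVP 4 the count was 8 lower and 1 higher with a median of -0.34, and leaving out single arrays gave 11 to 15.

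Promoter windows from RefSeq (GRCm38.p6, from 250 bases before to 50 after each start) were matched for 20 of the 25 listed genes and searched on both strands for the HSF1 recognition pattern. A pair of units, GAANNTTC or TTCNNGAA, stood in 15.1% of all 32851 windows. At least 3 alternating GAA and TTC units, each parted by any 2 bases, stood in 0.603% of all windows and held at least one such pair. That run was found for 4 of the 20 matched genes, Hspd1, Hspe1, Chordc1 and Hsph1, and for none of 11 matched chaperonin and prefoldin genes. Hsp90aa1 had no window, so its promoter was not searched. The 4 genes with the run were all lower with PVP, as were 18 of the 21 tested members of the list. The 3 distinct runs are shown with their units in capitals.
Hspe1 (chr1:55088053-55088082, + strand): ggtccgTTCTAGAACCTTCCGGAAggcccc
Chordc1 (chr9:18292259-18292288, + strand): accgGAACGTTCGGGAAAATTCCTGAAgca
Hsph1 (chr5:149636287-149636308, - strand): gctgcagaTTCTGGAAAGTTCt
The Hspe1 run began 89 bases before its annotated start. The same 18 bases lay 144 bases before the start of Hspd1 on the other strand, so this divergent pair shares it. The Chordc1 run spanned the start site, and the Hsph1 run began at base 37 of the transcript. A match is a description of sequence and shows no binding.

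Hsp90aa1, the inducible cytosolic HSP90, measured 11.75, 12.36, 12.34 and 11.94 in PVP livers and 13.34, 12.84, 13.63 and 13.35 in citrate livers. Every PVP liver was below every citrate liver, and the water mean of 13.31 ± 0.24 matched the citrate mean of 13.29 ± 0.33. The difference was -1.19 (SE 0.20, adjusted p = 0.212), and -0.94 without PVP 1 and PVP 4. Stip1, which hands clients from HSP70 to HSP90, was at 9.90, 10.69, 10.80 and 10.43 with PVP against 11.74, 11.43, 11.71 and 11.42 with citrate, a difference of -1.12 (SE 0.23). It too had no overlap, and water averaged 11.84 ± 0.34. Ahsa1, the activator of the HSP90 ATPase, was lower by 0.66 on the log2 scale (8.78 ± 0.22 against 9.44 ± 0.15), with water at 9.39 ± 0.05.

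The genes with the runs above had lower PVP means as well. Hspe1, the mitochondrial cochaperonin, measured 9.46, 9.35, 9.54 and 9.84 with PVP and 10.24, 10.001, 10.15 and 10.19 with citrate, and its partner Hspd1 13.76, 13.70, 13.82 and 13.80 against 14.22, 14.16, 14.08 and 14.10. Neither gene had overlap, and both water means, 9.92 ± 0.21 and 13.92 ± 0.10, lay between the coatings. Hsph1, a nucleotide exchange factor of HSP70, was at 8.71 ± 0.50 against 9.53 ± 0.37, and Chordc1, an HSP90 cochaperone, at 9.83 ± 0.69 against 10.55 ± 0.27. The groups overlapped for both, and the water means of 10.12 ± 0.15 and 10.88 ± 0.35 were above both coatings. These genes, apart from Hsph1, were picked here by their promoter match.

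Not every chaperone was lower. Hspa1a, the stress-induced HSP70, was at 4.37 in both groups, near the lower limit of the array. Bag3 had a difference of -0.05 (SE 0.14), Dnajb1 -0.15 (SE 0.15) and Dnajb4 0.20 (SE 0.09). Hspa8, the constant HSP70, was at the ceiling on every array. The pseudogene Hspd1-ps3 was lower by 0.65 on the log2 scale, but its probes may also read Hspd1.

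The TRiC chaperonin folds actin and tubulin, and prefoldin delivers chains to it. All 12 tested members of the TRiC and prefoldin list were lower with PVP, 7 at p under 0.05 and 7 without overlap, with a median of -0.24. Of all genes of signal 9 to 11, 75.6% were lower and 17.9% lower at that p, and 4.84% of all genes tested were wholly below. Cct3 was at 9.41 ± 0.33 against 10.14 ± 0.07, Cct2 at 12.63 ± 0.37 against 13.31 ± 0.07 and Cct5 at 9.36 ± 0.25 against 9.79 ± 0.05. The 3 genes had no overlap and had water means of 9.95, 13.19 and 9.68. In the fit without PVP 1 and PVP 4, 3 of 12 had p under 0.05 and the median was -0.21, and as few as 3 did on leaving out citrate 1.

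Proteasome subunits showed smaller values. Of 30 tested, 27 were lower, 6 at p under 0.05, with a median of -0.20. Both are close to the values of all genes of signal 9 to 11, of which 17.9% were lower at that p with a median of -0.18. Psmd14, the deubiquitinase of the lid, was at 7.64 ± 0.23 against 7.98 ± 0.03. No subunit had p under 0.05 without PVP 1 and PVP 4, and the median was then -0.03. The count was 2 without citrate 1.

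**Figure D2:**
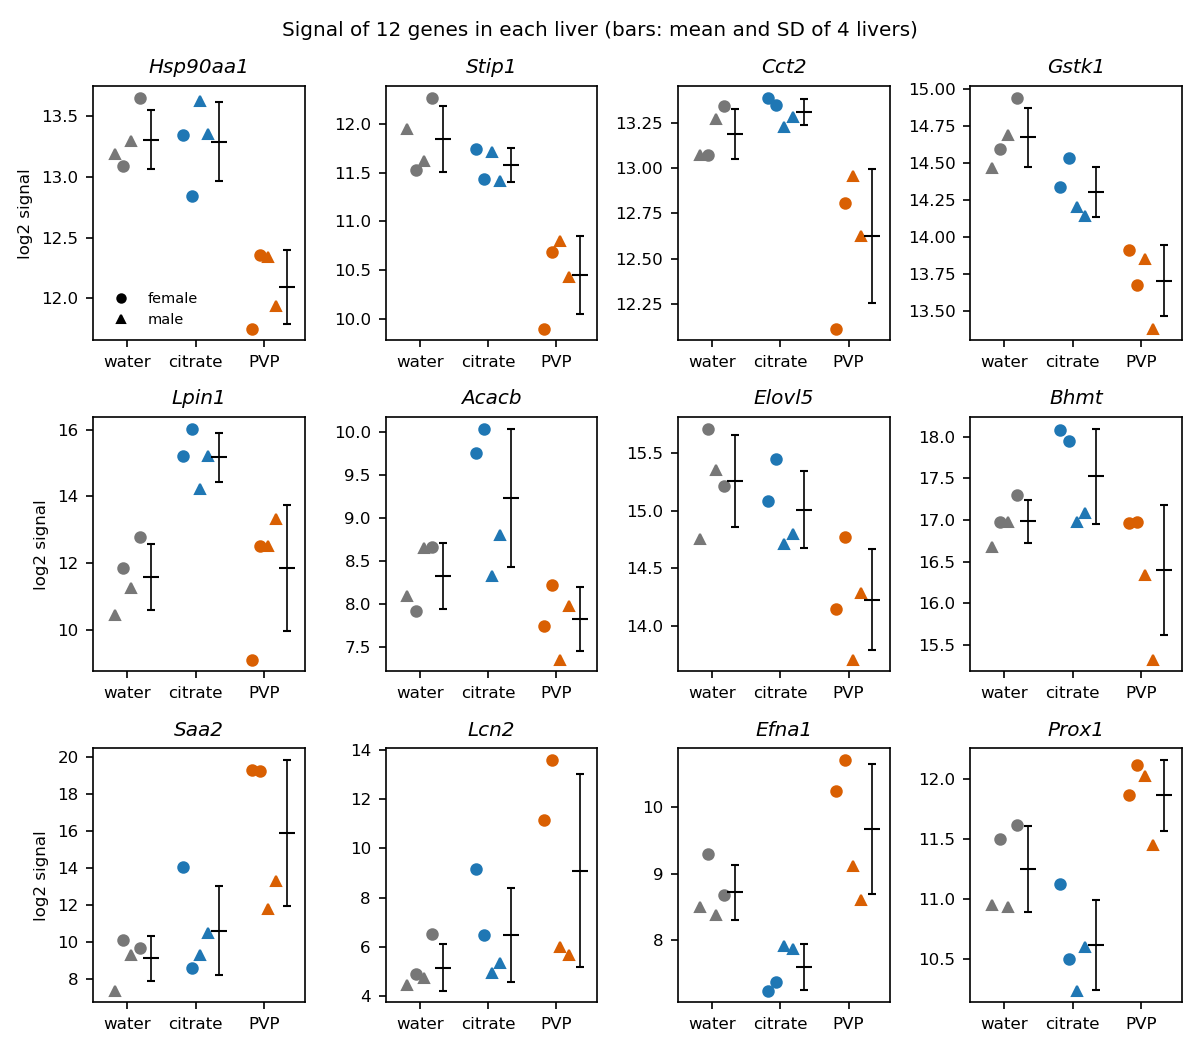
Log2 signal (vertical axis) of 12 genes in every liver by treatment (water grey, citrate blue, PVP orange), circles for females and triangles for males, with bars for the mean and SD of 4 livers. Hsp90aa1 and Stip1 have PVP livers below citrate and water alike, Lpin1 and Acacb have citrate livers above PVP without overlap, and Saa2 and Lcn2 are highest in the 2 PVP females.

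Acute phase genes had the highest median of the 40 lists. Hepatocytes make these plasma proteins in response to interleukin-6 and interleukin-1. Of 28 tested, 21 were higher with PVP, 11 at p under 0.05 and none lower at that p. Of all genes 5.29% were higher at that p, and 128 of the 1067 genes of signal 13 to 20, which holds the list's median signal, were so too. The median was 0.36, or 0.55 without PVP 1 and PVP 4, where 9 had p under 0.05. None was free of overlap between the groups, and 3 had p under 0.05 without citrate 2. The list's median deviation from water was 0.73 and 1.28 in the PVP females, 0.13 and 0.32 in the PVP males, 0.63 and 0.01 in the citrate females and 0.00 and 0.24 in the citrate males.

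Saa2, a serum amyloid A carried on HDL, measured 19.34, 19.28, 11.80 and 13.31 in PVP livers and 14.09, 8.63, 9.33 and 10.53 in citrate livers, with water at 9.13 ± 1.21. The 2 PVP females were far above every other liver, and citrate 1 exceeded both PVP males. The difference was 5.29 (SE 1.34, adjusted p = 0.247) and 3.92 without citrate 2. Saa1, whose sequence is so close to Saa2 that probes may read both, was at 19.26, 18.70, 12.84 and 14.46 against 15.60, 9.71, 10.96 and 11.93. Lcn2, lipocalin-2, an iron-siderophore binding protein, was at 11.13, 13.60, 5.99 and 5.67 against 9.14, 6.49, 4.96 and 5.35. For this gene, the difference of 2.61 (SE 1.07) was 1.57 without PVP 2.

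Other acute phase members had smaller differences. Orm1, orosomucoid, was at 18.94 ± 0.88 against 18.18 ± 0.48, and Itih4, an inter-alpha-trypsin inhibitor chain, at 19.22 ± 0.60 against 18.66 ± 0.41. Fga, Fgb and Fgg, the fibrinogen chains, were at the ceiling. Socs3, the feedback inhibitor of interleukin-6 signalling, had a difference of 0.17 (SE 0.10).

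Markers of blood and resident immune cells varied between the livers. Of 15 Kupffer cell markers, 8 were higher and 7 lower with PVP, none at p under 0.05, and PVP 1 had a list median of -0.07 relative to water. PVP 2 had a list median 1.505 above water against 0.80 and 0.54 in the citrate females. The summed Kupffer marker signal ran from 13.03 to 15.32 in PVP and from 13.10 to 14.33 in citrate livers on the log2 scale. Of 12 neutrophil and monocyte markers, Cxcr2, a neutrophil chemokine receptor, was higher at p under 0.05, by 0.37 (SE 0.12). Its value was the same, 5.41, in citrate 3 and 4, PVP 3 and water livers 3 and 4, which narrows its spread. Among genes of signal 5 to 7, which holds the list's median signal, 4.92% were higher at that p. The list median was 0.14, and 0.38 without PVP 1 and PVP 4, where 2 markers were higher at that p. The summed signal of that list ran from 9.78 to 12.87 in PVP and from 9.94 to 10.60 in citrate livers. The part of these cells in the acute phase values was not tested.

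Interferon and complement genes past the unadjusted threshold were all higher with PVP, and those of the chemokine list went both ways. Of 22 interferon-stimulated genes, 3 were higher at p under 0.05 (Mx2, Irf1 and Oas2) and none lower, with a median of 0.04. Of 23 complement and coagulation genes, 2 were higher and none lower at that p. They were Mbl1, a mannose-binding lectin, higher by 0.86 (SE 0.34), and C4b, higher by 0.92 (SE 0.36). Among 14 chemokine and cytokine genes, Icam1 was higher by 0.32 (SE 0.14) and Ccl5 lower by 0.39 on the log2 scale (SE 0.16).

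Fatty acid and triglyceride synthesis was the metabolic list with the lowest median. Acetyl-CoA carboxylase and fatty acid synthase build the chain, elongases and desaturases modify it, and lipins and acyltransferases attach it to glycerol. Of 22 tested genes, 21 were lower with PVP, 10 at p under 0.05 and 6 without overlap, with a median of -0.48. Among genes of signal 11 to 13, where the list's median signal lies, 17.2% were lower at that p, and 4.84% of all genes were wholly below. There were 8 at p under 0.05 and a median of -0.45 without PVP 1 and PVP 4, and leaving out single arrays gave 9 to 13.

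Lpin1, a phosphatidate phosphatase that also acts as a transcriptional coactivator, measured 9.11, 12.51, 12.50 and 13.32 in PVP livers and 15.21, 16.03, 14.23 and 15.21 in citrate livers. All PVP livers were below all citrate livers, and water livers averaged 11.60 ± 0.99, near the PVP mean of 11.86 ± 1.87. The difference was -3.31 (SE 0.86, adjusted p = 0.247), -2.26 without PVP 1. Acacb, the mitochondrial acetyl-CoA carboxylase whose product restrains fatty acid entry, was at 7.74, 8.22, 7.35 and 7.98 against 9.75, 10.04, 8.32 and 8.80, with water at 8.32 ± 0.38. It had no overlap and a difference of -1.41 (SE 0.32).

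Enzymes that activate, lengthen and desaturate chains had PVP means below both citrate and water. Elovl5, an elongase of polyunsaturated chains, was at 14.22 ± 0.44 against 15.01 ± 0.33, with water at 15.26 ± 0.40. Acsl5, which activates fatty acids, was at 14.94 ± 0.31 against 15.57 ± 0.10, with water at 15.53 ± 0.21. The delta-6 desaturase Fads2, named after its value was seen, was at 16.73 ± 0.34 against 17.68 ± 0.20 with no overlap and with water at 17.38 ± 0.58. Fasn, fatty acid synthase, was at 12.32 ± 0.89 against 13.29 ± 1.00 with overlap, and its difference was -2.14 in females and 0.20 in males.

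Cholesterol synthesis and fatty acid oxidation had fewer genes past the unadjusted threshold. All 18 cholesterol genes were lower with PVP but none had p under 0.05. Their median of -0.26 became -0.69 with 12 at p under 0.05 when PVP 2 was left out, and it turned to 0.07 with none at that p when PVP 1 and PVP 4 were left out. Sqle, squalene epoxidase, was at 9.85, 12.82, 8.92 and 9.35 in PVP livers against 12.07, 11.47, 9.995 and 9.87, with PVP 2 the highest of all. Of 24 PPAR-alpha and oxidation genes, 2 were lower at p under 0.05, Ehhadh, a peroxisomal oxidation enzyme (14.12 ± 0.29 against 15.04 ± 0.47, water 15.64 ± 0.32), and Cpt2. The list median was -0.34, and 0.00 without PVP 1 and PVP 4. With all arrays, 17.2% of genes of signal 11 to 13, which holds this list's median signal, were lower at that p. Their median was -0.14.

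Glutathione transferases joined the lower genes. These enzymes attach glutathione to reactive compounds, and several are induced by the factor NRF2. Of 26 tested genes of the NRF2 and glutathione list, 23 were lower with PVP, 9 at p under 0.05 and 2 without overlap, beside 17.2% lower at that p among genes of signal 11 to 13 and 4.84% of all genes wholly below. All 9 were transferases, among them Gstm1, Gstm2, Gstm3, Gstm4 and Gstm6 of the mu class, whose sequences are alike enough for probes to cross-read. The median was -0.27, and -0.06 without PVP 1 and PVP 4, where 8 genes had p under 0.05, and 5 genes did without citrate 2.

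Gstk1, the mitochondrial and peroxisomal kappa transferase, measured 13.91, 13.67, 13.85 and 13.38 with PVP and 14.34, 14.53, 14.20 and 14.14 with citrate. The groups did not overlap, and both means were below the water mean of 14.67 ± 0.20. Its difference was -0.60 (SE 0.13, adjusted p = 0.220). Gstm3 was at 10.85, 10.63, 12.14 and 12.59 against 12.01, 12.52, 13.42 and 13.78. Within each sex every PVP liver was below every citrate liver, and the difference was -1.38 (SE 0.27).

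Other members of the list had no p under 0.05. Nqo1, a quinone reductase, had a difference of -0.09 with a 95% interval from -0.51 to 0.32. Hmox1, heme oxygenase, was at 7.63, 8.27, 6.66 and 7.37 with PVP and 7.17, 6.80, 6.84 and 7.13 with citrate, a difference of 0.50 (95% interval -0.09 to 1.08). Of 18 antioxidant genes, 3 were lower at p under 0.05, Prdx3 and Txn2, the mitochondrial peroxiredoxin and thioredoxin, and Prdx2. That share is close to the 15.5% of all genes of signal 7 to 9 that were lower at that p. Txn2 was at 8.32 ± 0.11 against 8.77 ± 0.19 with no overlap.

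Metal handling genes had few members past the unadjusted threshold, although silver binds metallothionein. Mt1, a metallothionein, measured 17.34, 17.36, 13.52 and 17.05 in PVP livers and 17.37, 17.37, 15.94 and 16.63 in citrate livers. PVP 3 was the lowest of the 8, the other 3 PVP livers lay within the citrate range, and water livers varied widely (13.83 ± 3.89). The difference was -0.51 with a 95% interval from -3.09 to 2.08, so a sizeable difference in either direction is within the error. Mt2 gave -0.45 (95% interval -3.60 to 2.70). The zinc exporter Slc30a1 was better determined, at 0.18 (95% interval -0.10 to 0.45). Of 22 genes of the list, 1 was higher and 2 lower at p under 0.05, with a median of 0.00. The higher one was the hepcidin gene Hamp2, which was saturated at the ceiling in every PVP and water liver and in 2 citrate livers, so its value is only a bound. The lower ones were Mtf1, the metal-sensing factor (6.49 ± 0.18 against 6.76 ± 0.11), and Tfrc, the transferrin receptor (8.08 ± 0.11 against 8.69 ± 0.30). Among genes of signal 9 to 11, which holds the list's median signal, 17.9% were lower and 2.51% higher at that p. Without PVP 1 and PVP 4, 2 genes of the list were higher and none lower at that p.

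Grb7, an adaptor protein, was at 8.72 ± 0.14 with PVP and 8.61 ± 0.17 with citrate against 9.61 ± 0.23 with water. The difference between coatings was 0.11 (95% interval -0.11 to 0.32).

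Bile acid, drug and amino acid enzymes had single genes with sizeable differences. Cyp7a1, the rate-limiting enzyme of bile acid synthesis, was at 15.79, 15.71, 14.91 and 13.38 with PVP and 17.08, 16.81, 14.91 and 15.77 with citrate, a difference of -1.20 (SE 0.48). Water averaged 14.68 ± 1.21 and the groups overlapped. Cyp2c70, which makes muricholic acids, was at 18.27 ± 0.37 against 18.96 ± 0.18 without overlap. Of 21 bile acid genes, 4 were lower at p under 0.05, and 2 were lower and 2 higher without PVP 1 and PVP 4. With all arrays, 17.2% of genes of signal 11 to 13 were lower at that p.

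Bhmt, which remethylates homocysteine with betaine, measured 16.96, 16.98, 16.34 and 15.32 against 18.08, 17.95, 16.98 and 17.08. The highest PVP liver and the lowest citrate liver nearly met, and water averaged 16.98 ± 0.25. The difference was -1.12 (SE 0.23, adjusted p = 0.212), and -0.86 without PVP 1 and PVP 4. Of 22 amino acid enzymes, 20 were lower, 3 at p under 0.05, with a median of -0.29. Among all genes of signal 13 to 20, 16.5% were lower at that p, with a median of -0.02. The list's count was 8 without PVP 1 and PVP 4, and 16 with the control area as a covariate.

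In drug metabolism 1 of 24 tested genes was higher and 2 lower at p under 0.05. Cyp3a11 was at the ceiling throughout. Cyp2b10, a target of the receptor CAR, was at 10.53, 8.04, 5.27 and 6.73 against 10.29, 12.36, 7.04 and 6.44, with wide overlap. Of 17 conjugating enzymes 16 were lower, 3 at p under 0.05, Sult1b1, Ugt2b1 and Papss2, with a median of -0.35. Both lists have a median signal between 13 and 20. At that brightness 16.5% of all genes were lower at that p, 128 of 1067 were higher, and the median was -0.02. The share of conjugating enzymes lower at that p, 17.6%, is close to that of all genes. No conjugating enzyme had that p without PVP 1 and PVP 4, where the list median was -0.37.

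Mitochondrial genes were often slightly lower. Of 38 nuclear-encoded respiratory chain subunits, 33 were lower with PVP, 20 (52.6%) at p under 0.05 and 11 without overlap, with a median of -0.25. At the list's brightness, signal 9 to 11, 17.9% of genes were lower at that p, and 4.84% of all genes were wholly below. Atp5b, the catalytic subunit of ATP synthase, was at 11.87 ± 0.25 against 12.36 ± 0.05, with water at 12.29 ± 0.09. Uqcrc1 of complex III was at 11.84 ± 0.37 against 12.36 ± 0.06, and Ndufab1 of complex I at 6.11 ± 0.17 against 6.43 ± 0.04. Without PVP 1 and PVP 4 the median stayed at -0.25 and 6 had p under 0.05, and without citrate 2 the count was 11. Of 26 mitochondrial ribosomal proteins, 24 were lower, 11 at p under 0.05, with a median of -0.21, beside 15.5% lower at that p and a median of -0.12 among genes of signal 7 to 9. The count was 3 without PVP 1 and PVP 4, with a median of -0.15, and 5 without citrate 1. In contrast 1 of 14 cytosolic ribosomal proteins was higher and 1 lower at p under 0.05.

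**Figure D3:**
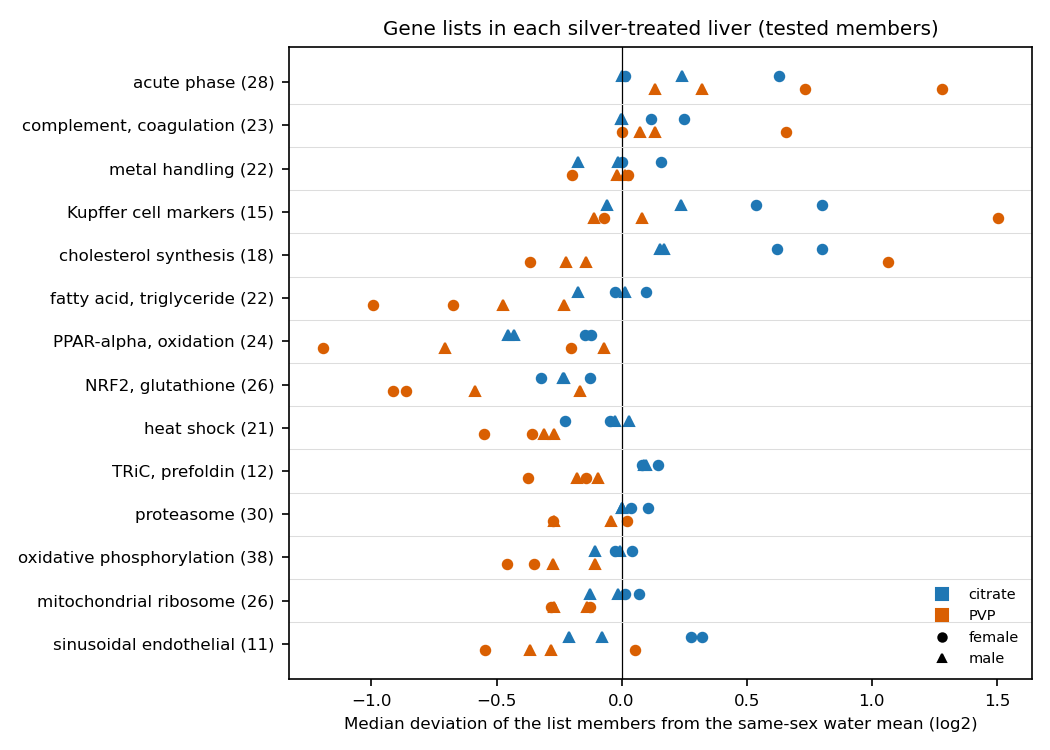
Median deviation of each list's tested members from the same-sex water mean (log2, horizontal axis) in each silver-treated liver, citrate in blue and PVP in orange, circles for females and triangles for males, with the number of members in parentheses. PVP livers lie left of citrate livers without overlap for fatty acid genes, heat shock and TRiC, whereas acute phase values are highest in the PVP females at 0.73 and 1.28.

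Hormone, fasting and clock genes gave a further set of values. Zbtb16, a glucocorticoid-induced factor, was at 6.12, 7.18, 6.56 and 7.61 with PVP and 8.65, 9.45, 7.36 and 8.32 with citrate, with water at 6.07 ± 0.19. The difference was -1.58 (SE 0.41, adjusted p = 0.247) and the groups overlapped by one liver each. Fkbp5, induced by the same receptor, had a difference of -0.47 (95% interval -0.997 to 0.05). Klf9, another such target, was lower without overlap, by 0.97 on the log2 scale. Of 20 glucocorticoid genes, 1 was higher and 3 lower at p under 0.05. Among all genes of signal 9 to 11, 2.51% were higher and 17.9% lower at that p.

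Ppargc1a, a coactivator of fasting genes, was at 9.39 to 9.47 in PVP and 9.68 to 11.64 in citrate livers, with water at 9.37 ± 0.90. Foxo1, a factor restrained by insulin, was at 8.21 ± 0.57 against 8.97 ± 0.43, with water at 8.10 ± 0.25. For both genes, the citrate mean was above water and the PVP mean near it. Bcl6, a repressor that opposes STAT5, was higher without overlap, at 7.84, 7.29, 9.22 and 8.88 against 6.32, 6.81, 6.88 and 7.24. Nfil3, a repressor of clock output genes, was also higher without overlap, at 6.10 ± 0.34 against 5.57 ± 0.16, and Per1 had a difference of -0.10 (95% interval -0.85 to 0.66).

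Markers of other liver cells differed in the endothelial list. Sinusoidal endothelial cells line the liver's capillaries and clear particles and colloids from blood. Of 11 tested markers 10 were lower with PVP, 4 at p under 0.05, with a median of -0.31. Among genes of signal 7 to 9, 73.4% were lower and 15.5% lower at that p. Oit3 was at 7.35, 7.88, 7.89 and 7.68 against 8.86, 9.15, 8.29 and 8.27, without overlap, a difference of -0.95 (SE 0.19). Pecam1 was at 6.34 ± 0.13 against 6.72 ± 0.17, but the scavenger receptors Stab1 and Stab2 had differences of -0.09 (SE 0.10) and 0.04 (SE 0.18). Without PVP 1 and PVP 4 the median was -0.04 and 2 had p under 0.05. Of 13 stellate cell and matrix genes, 1, Reln, was lower at p under 0.05.

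Cell division and damage genes were near the lower end of the signal range. Of 15 cell cycle genes, Mki67 was higher at p under 0.05, at 5.34 ± 0.19 against 4.92 ± 0.18, and 4 lay above the citrate livers without overlap. Of all genes of signal 3.93 to 5, 6.69% were higher at that p, the same share as in the list. Wholly above lay 2.36% of all genes tested. The list's median was 0.13, and genes of this brightness had a median of 0.07. Cdkn1a, the p53 target p21, was lower by 0.83 on the log2 scale (SE 0.31) with overlap, whereas Gadd45a was higher by 0.49 (SE 0.15). Of 21 p53 and damage genes, 2 were higher and 3 lower at p under 0.05. Among all genes of signal 5 to 7, 4.92% were higher and 8.74% lower at that p.

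The sexes were compared for the same contrast, with 2 livers per coating and sex. No gene had an adjusted p under 0.05 for a difference between the sexes (0%), and 934 had an unadjusted p under 0.05 (4.67%). Within females 2651 genes had an unadjusted p under 0.05 and 1 passed adjustment, and within males 775 and 0. The 5 of smallest p were Il33, Efna1, Litaf, Zfp830 and Rbm33, all with an adjusted p of 0.911 by limma. Efna1 was higher with PVP by 3.16 in females and 0.97 in males, and Il33, an alarm cytokine, by 0.91 in females with -0.28 in males. Saa2 was higher by 7.95 in females and 2.62 in males, a difference with an unadjusted limma p of 0.0353. Lpin1 had differences of -4.81 in females and -1.81 in males. Hsp90aa1 differed by -1.04 and -1.35.

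**Figure D4:**
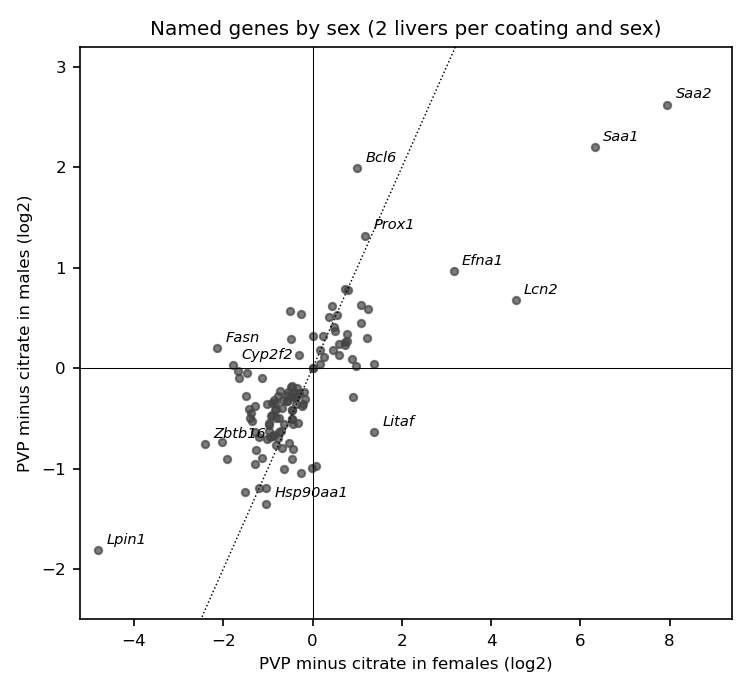
PVP minus citrate (log2) of the named genes in females (horizontal axis) and males (vertical axis), one point per gene, with a dotted line where both are equal and unequal axis scales. Saa2, Lcn2, Efna1 and Lpin1 lie farther from 0 in females, at 7.95, 4.55, 3.16 and -4.81, and Hsp90aa1 lies near the line.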

How the data were processed

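RNA of 12 livers was measured on 1 array each. The authors deposited a table of log2 signals for 72688 probe sets, in which RMA and Transcriptome Analysis Console 4.0.1.36 are named per the submitters' processing notes without their roles. The aligner, build and background steps are not given in the sources used here. The ceiling of 19.93 hides differences of the brightest genes, 87 of which reached it on a silver-treated array. Genes fixed at a value just below it, such as Serpina1d at 19.80, are not in that count. Probe sets naming 1 symbol (30604, of which 1135 symbols were updated from RefSeq) stood for genes, with the brightest kept for 429 genes. limma 3.58.1 in R 4.3.3 fitted group and sex with a trended spread, two-sided, with Benjamini-Hochberg adjustment over 19985 genes. Replicate numbers of the silver groups followed sex and were not used as pairs in the main fit.

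The members, the 40 lists (797 genes, 705 with a probe set) and the tests were chosen with earlier results of these data known. Genes were named by a rule: the 24 of smallest p, up to 3 per list with p under 0.05, a panel of 28, and 5 for the sexes. Others are list members named after their values were seen. Alternatives covered normalization, filter, probe set choice, array quality, weights and left-out arrays.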

Additional observations from a re-analysis of the deposited data

Results flagged for a closer look

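Of 252 sets of 4 livers examined over 123 named genes (some at the ceiling), 11 held a liver farther from its group than Dixon's 95% limit, and chance alone sets off about 1 in 20. Citrate livers held 5 of these. The values were 6.11 for Rrp12, 14.6 for Hspd1-ps3 and 12.3 for Mbl1 in citrate 1, and 10.04 for Cct3 in citrate 2. Citrate 4 had 12.1 for the pseudogene Anp32-ps. PVP 1 stood apart with 7.31 for Zfp395, 9.42 for Klf9 and 7.12 for Per1, and PVP 4 with 16.2 for Fah, the last enzyme of tyrosine breakdown. PVP 3 stood apart for both metallothioneins, with 13.5 for Mt1 and 13.1 for Mt2, while the other PVP livers were between 17.05 and 18.78.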

How the results depend on the processing

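In the comparison over both sexes no gene passed an adjusted p of 0.05, except 1 with 6 means of group by sex (Efna1), 1 after quantile normalization (Ablim3) and 4 with array weights (Ablim3, Dlc1, Gm10039 and Snord16a). The unadjusted count of 2800 became 1713 when the control area entered as a covariate, became 1375 without PVP 1 and PVP 4, and ranged from 1666 to 3495 when 1 array was left out. The count of sex differences ranged from 0 to 2 on leaving out 1 array. The difference in exon and intron medians, -0.434 (exact permutation p = 0.0286), passed where that in area did not. With a replicate block in the 8 silver-treated arrays, 0 genes passed adjustment and 2405 had p under 0.05. The labels give no pairing of the livers. Deviations from group-by-sex means correlated at -0.138 in females and -0.097 in males between same-numbered livers. By deviations from group means, no PVP liver correlated best with its own number. With 2 livers per group and sex, the deviations mirror each other, so these values cannot settle whether the numbers pair livers. None of the 103 named genes at an unadjusted p under 0.05 changed sign under any alternative, whereas Mt1, Mt2, Per1, Rbm33 and Sqle did. Most of the 103 were named for a small p in these same arrays, so a kept sign is no independent support. Leaving out a water array does not alter the differences between coatings. The number of arrays, 4 a group, limits precision.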

Other observations

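Small nuclear RNAs stood above other classes. Of 730 tested, 235 (32.2%) were higher with PVP at an unadjusted p under 0.05 and 5 lower, with a median difference of 0.58. Their median signal was 6.60, 6.08, 6.30 and 6.60 in PVP livers 1 to 4 and 5.67, 5.73, 6.17 and 5.87 in citrate livers, with overlap, and 5.35 to 6.34 in water livers. Many are near-identical copies, so single genes are not separable. For microRNA genes 12.8% of 367 were higher, for small nucleolar RNAs 7.77% of 669 and for long non-coding RNAs 8.003% of 1337, against 3.36% of 13225 protein-coding genes. Protein-coding genes had a higher median signal than these 3 classes on every array. Of all genes of signal 3.93 to 5, 6.69% were higher at that p, and 4.92% of those of 5 to 7. The shares of small nucleolar and long non-coding RNAs are near the former. The 2 highest small nuclear RNA values were in PVP 1 and PVP 4, the arrays with the lowest control areas, and the part of array quality was not tested.

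Probe sets left out of the gene table were mostly higher with PVP at an unadjusted p under 0.05, unlike the genes tested (1057 higher and 1743 lower). Of 18373 tested, 2082 (11.3%) had p under 0.05, 1753 of them higher and 329 lower with PVP, and 0 passed adjustment by limma.

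The endoplasmic reticulum stress list had 15 of 20 genes lower, close to the 75.6% of all genes of signal 9 to 11. At p under 0.05, 1 was lower and 1 higher, beside 17.9% lower and 2.51% higher among genes of that signal. They were Xbp1, a factor of the unfolded protein response, at 9.94 ± 0.55 against 10.76 ± 0.30, and Trib3, higher by 0.18 (SE 0.08). Of 21 lysosome and autophagy genes, Ctsb, cathepsin B, was lower at p under 0.05, at 15.88 ± 0.34 against 16.16 ± 0.26.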
